A study of Mus musculus with 4 samples.

Results

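Isolated peaks are stretches of the mouse genome where anti-FLAG ChIP exceeded input and where no other such stretch lay within 100 kb on either side. They were taken from 1 list of 37778 peaks by 4 conditions: a place on chromosomes 1 to 19, a width from 1000 to under 10000 bp, a mean input from 3 to under 20 reads per bin, and a gap over 100 kb to both neighbouring peaks of the full list. Width and input alone were met by 32834 autosomal peaks, called eligible here, and 1510 of these were isolated (4.60%). They are set against 4418 clustered peaks, which meet the same width and input limits and have a neighbour within 10 kb on both sides. Positions, widths and read counts of the list therefore chose the members, and all comparisons below describe that list without a test.

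The list comes from the dentate gyrus of C57BL6 mice around 9 weeks old, of a line in which Mbd1 carries a FLAG tag. All libraries, controls included, come from this tagged line: 2 ChIP libraries were made with an anti-FLAG antibody, and 2 input libraries were made from DNA without antibody. No ChIP from untagged animals is among the 4 libraries, so excess over input cannot be told apart from background of the antibody or of chromatin. The labels do not say which animals the libraries came from, nor how the tagged allele was made. The authors gave a single list for the whole series, which names no library and holds no separate values. That it combines all 4 libraries is assumed here. By its name, the list was called with default settings at a false discovery rate limit looser than 0.05. Listing alone is therefore lenient, and 903 of the 1510 isolated peaks lack the authors' quality flag, described below. None of the differences below could be set against replicate error, and sequencing depth is unknown. Intervals given with medians and shares cover the spread over peaks only and treat peaks as independent. Positions are on mm9. The gene and promoter tables at hand are on another build, so genes and sequences under the peaks were not analysed here.

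MBD1 belongs to the methyl-CpG-binding proteins, which recognise methylated CpG sites through a shared domain and recruit repressive chromatin complexes. It also carries CXXC zinc fingers, of which some forms can bind CpG without methylation. In the dentate gyrus, a part of the hippocampus where neurons are born throughout adult life, loss of MBD1 is known to impair adult neurogenesis. CpG sites are methylated over most of the mammalian genome outside CpG islands, so a map of such a protein can be broad, and peaks that stand alone differ in setting from peaks that lie in dense runs.

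By the gap condition alone, 2251 of 37637 autosomal peaks stood alone (5.98%). Of these, 409 were narrower than 1000 bp (18.2%), and 462 had an input of 20 reads per bin or more (20.5%), against 5.08% and 4.02% of all autosomal peaks. Only 4 were too wide and 18 had too little input, and a peak could fail both limits. The limits thus removed mainly narrow peaks and peaks with high input, and 1510 of the 2251 remained (67.1%). A further 27 eligible peaks lay at a chromosome end, with no neighbour on 1 side, and were not counted as isolated.

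The isolated peaks were 4.01% of all autosomal peaks. Together with the empty stretches beside them they took up 762.8 Mb, or 31.7% of the 2406 Mb between the first and last peaks of the autosomes. The peaks themselves covered 3.62 Mb, against 18.2 Mb in clustered peaks. The median distance to the nearer neighbour was 158.4 kb (interquartile range 121.4 to 220.1 kb), and to the farther one 310.7 kb. Clustered peaks had medians of 2.67 and 6.56 kb. Within 500 kb on each side, the median isolated peak had 5 other peaks and the median clustered peak 45. The ranges overlapped, from 0 to 34 others around isolated peaks and from 4 to 76 around clustered ones. An isolated peak can thus stand alone inside a region that is otherwise well filled. The share of the span and the low number of peaks nearby follow in part from the gap condition itself.

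Isolated peaks could follow one another along a chromosome. A peak next to an isolated one already has a gap over 100 kb on that side, so runs follow in part from the rule. No expected number of runs was computed. In 821 of 1510 the next peak of the list on at least 1 side was also isolated, and 689 were single. The runs comprised 182 of 2 members, 80 of 3, 30 of 4, 8 of 5, 6 of 6 and 3 of 7. The runs of 7 lay on chromosome 7 from 89145819 to 91661193 (2.52 Mb), on chromosome 9 from 70669177 to 72413416 (1.74 Mb) and on chromosome 13 from 102418600 to 103464799 (1.05 Mb). Their median ChIP counts were 72, 71.1 and 62.9 reads per bin, and the quality flag, introduced below, was carried by 2, 2 and 1 of their members. A run of 6 on chromosome 9, from 63630977 to 67169655, was stronger, at a median ChIP of 87 reads per bin, and 5 of its members were flagged. These runs were chosen for their length after the values were seen. The flag was carried by 40.2% of all isolated peaks and by 30.8% of the whole list. With so few members per run, no difference from these shares can be read.

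Isolated peaks were narrower than clustered peaks, with more reads in both ChIP and input. The median width was 1957 bp (interquartile range 1400 to 2905 bp) against 3657 bp (2420 to 5483 bp). The mean ChIP count per bin (bin width not stated, assumed here to be near 200 bp) had a median of 66.3 (95% interval of the median 65.9 to 67, interquartile range 60.8 to 75.6). In clustered peaks it was 57.1 (57.0 to 57.4, interquartile range 53.9 to 60.7), and in all eligible peaks 58.6. Mean input had a median of 15 reads per bin (interquartile range 12.3 to 17.2) against 10.8 (interquartile range 8.92 to 12.8). All 3 differences had the same sign on each of the 19 autosomes.

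Enrichment over input was slightly lower at isolated peaks when taken as a ratio, and almost the same when taken as an excess of reads. The deposited log2 ratio is that of ChIP against input scaled to ChIP, an average taken here to be over bins. Its median was 1.07 in isolated peaks (1.04 to 1.09, interquartile range 0.85 to 1.39). In clustered peaks it was 1.28 (1.27 to 1.30, interquartile range 1.08 to 1.56). It was lower in isolated peaks on all 19 autosomes. As a fold of mean counts the medians were 1.93 and 2.17. Scaled input rose from a median of 26.2 reads per bin in clustered peaks to 36.3 in isolated ones, a rise of about the same size as that of ChIP. The median excess, ChIP minus scaled input, was 31.3 reads per bin in isolated peaks (30.8 to 31.9) and 30.6 in clustered peaks (30.4 to 30.8). Its upper range differed, with a 95th percentile of 83.7 against 41.7 reads per bin.

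The authors' quality flag, which in every peak coincided with a smallest p over the bins of at most 0.0001, was carried by 607 of 1510 isolated peaks (40.2%, exact 95% interval 37.7 to 42.7%). Over the whole list it was carried by 30.8%, and in clustered peaks by 1264 of 4418 (28.6%, 27.3 to 29.97%). The difference of 11.6 percentage points depended on the gap border, with 5.35 points for a gap over 50 kb and 18.0 for one over 200 kb. A mean p over the bins of at most 0.05 went the other way. It was met by 14 isolated peaks (0.927%), against 3.17% of the whole list and 159 clustered peaks (3.60%). How these p-values were computed is not given, so neither is the result of a known test. Flagged isolated peaks had a median ChIP of 77.3 reads per bin, a width of 1739 bp and a log2 ratio of 1.30, and the 903 unflagged ones 63.1 reads, 2137 bp and 0.96. Flagged and unflagged clustered peaks differed in median width (4312 and 3450 bp) and log2 ratio (1.501 and 1.222) and little in ChIP (57.9 and 56.9 reads).

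**Figure D1:**
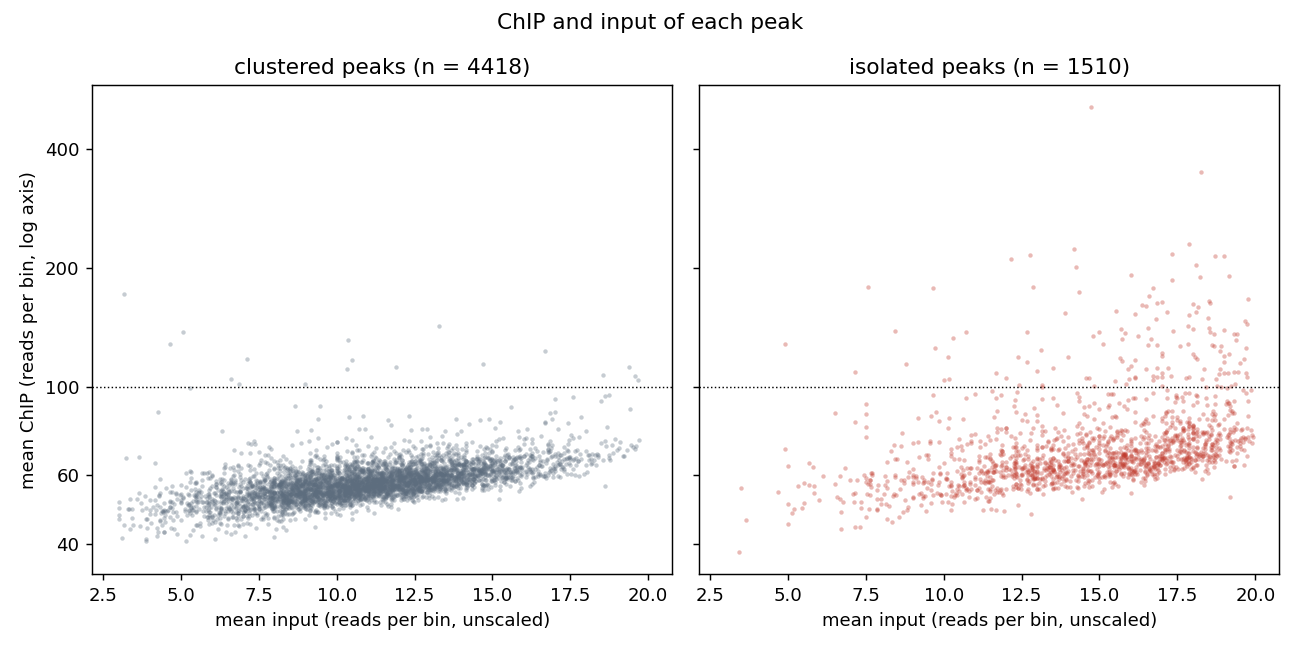
Mean input (x axis, reads per bin, unscaled) and mean ChIP (y axis, reads per bin, log axis) of each of 4418 clustered peaks (left) and 1510 isolated peaks (right), with a dotted line at 100 ChIP reads per bin. Isolated peaks lie further to the right, and 140 of them are at or above the line, against 18 clustered peaks.

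The 2 groups differed in their strongest members more than in their medians. A mean of at least 100 ChIP reads per bin, a border chosen after the values were seen, was reached by 140 isolated peaks (9.27%, exact 95% interval 7.86 to 10.8%). It was reached by 1.44% of eligible peaks and by 18 clustered peaks (0.407%, 0.242 to 0.643%). In the whole list, without limits on input or width, it was reached by 1513 of 37778 peaks. The 95th percentile of ChIP was 121.7 reads per bin in isolated and 67.7 in clustered peaks, and the 99th 179.7 and 80.9. Over all inputs together, the log2 ratio differed less in its upper range, with 95th percentiles of 2.07 and 2.09 and 99th percentiles of 2.87 and 2.61 in isolated and clustered peaks. A ratio over 2 was found in 94 isolated peaks (6.23%), against 7.73% of the whole list and 308 clustered peaks (6.97%). A ratio under 1 was found in 641 isolated peaks (42.5%), against 28.9% of the list and 796 clustered peaks (18.0%).

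The 140 isolated peaks with at least 100 ChIP reads per bin were narrow, at a median of 1396 bp, and all carried the quality flag. Their median input was 17 reads per bin, above the 14.7 of the other 1370, and their median log2 ratio 1.66 against 1.02. Their highest bin was 1.76 times their mean in the median peak, against 1.41 in the others, so reads were more concentrated in 1 part of the peak. They stood slightly further from their nearer neighbour, at 177 against 157.7 kb. High ChIP thus went with high input among isolated peaks. Of the 140, 93 had an input of 16 reads per bin or more, a band that held 38.9% of all isolated peaks. The 18 clustered peaks with at least 100 ChIP reads per bin also all carried the flag. Their median input was 10.4 reads per bin, their log2 ratio 2.02 and their highest bin 2.10 times their mean.

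**Figure D2:**
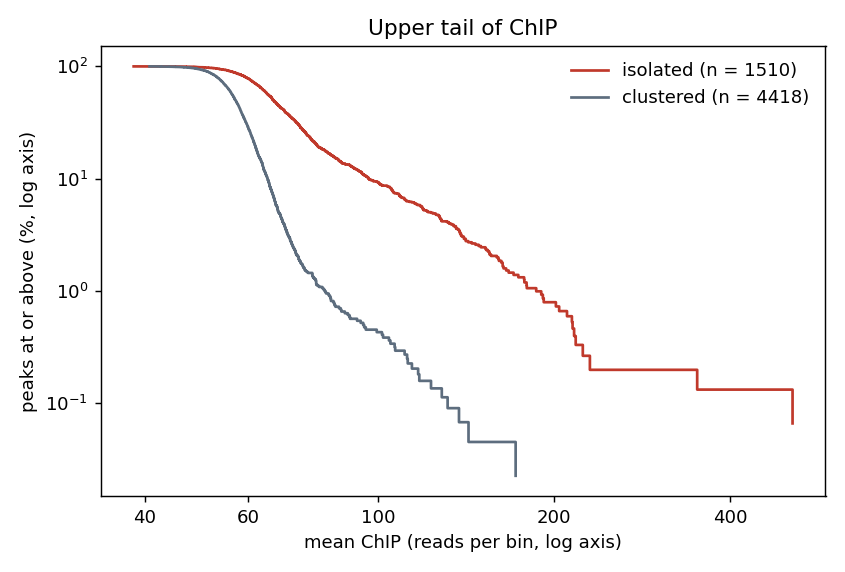
Share of peaks (y axis, percent, log axis) with at least the mean ChIP count on the x axis (reads per bin, log axis), for isolated and clustered peaks. At 100 reads per bin the curves stand at 9.27% and 0.407%.

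Because input is the denominator of the ratio and was limited in choosing the peaks, isolated and clustered peaks were also compared within bands of input. Isolated peaks had the higher median ChIP in each of 4 bands of input. From 3 to under 8 reads per bin, ChIP was 56.2 in 67 isolated and 52.3 in 665 clustered peaks. From 8 to under 12 it was 59.4 in 271 and 56.1 in 2184, and from 12 to under 16 it was 64.7 in 584 and 59.8 in 1362. In the highest band, from 16 to under 20, 588 isolated peaks had a median of 72.6 reads and 207 clustered peaks 66.1. Median input was still higher in isolated peaks within each band. It was 7.1 against 6.7, 10.6 against 10.1, 14.2 against 13.3 and 17.7 against 17.1 reads per bin.

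Within these bands the log2 ratio was also slightly higher in isolated peaks, the reverse of the difference over all bands. Its medians were 2.04 against 1.93 in the lowest band, 1.43 against 1.38, 1.05 against 1.02, and 0.83 against 0.77 in the highest. High ratios parted the groups more: a log2 ratio over 2 was found in 53.7% of isolated against 42.0% of clustered peaks in the lowest band, 11.8% against 1.28%, 2.40% against 0.0734%, and 2.04% against none of 207 in the highest. The 2 groups fill the bands unequally: 38.9% of isolated but 4.69% of clustered peaks lay in the highest. The flagged share was 46.3% against 44.5% in the lowest band and 46.8% against 23.2% in the highest. With each isolated peak set against clustered peaks in the same bands of width (1000 bp) and input (1 read per bin), which was possible for 1436 of 1510, ChIP was higher by a median of 1.95 reads per bin. It was higher than the clustered median in 907 of 1436 (63.2%). In this matched comparison the log2 ratio was higher by 0.031 and the flagged share by 19.5 percentage points. The overall shift of median ChIP by 9.19 reads per bin was therefore much smaller at like width and input, and the lower ratio was no longer seen.

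**Figure D3:**
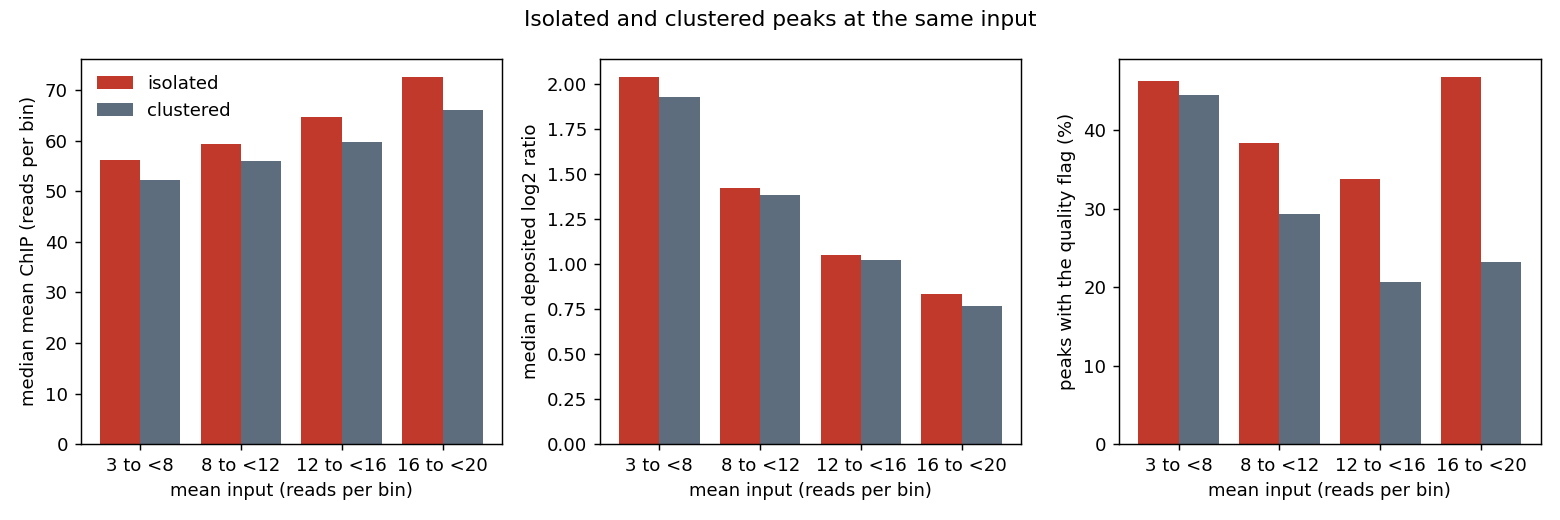
Median of the mean ChIP count (left), median deposited log2 ratio (middle) and share of peaks with the quality flag (right) in 4 bands of mean input (x axis, reads per bin), for isolated and clustered peaks. In every band the isolated bar is the higher one in all 3 panels.

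Width bands showed where the strong isolated peaks lay. From 1000 to under 2000 bp, 783 isolated peaks (51.9% of them) had a median ChIP of 72 reads and 47.1% with the flag, against 59.6 reads and 24.7% in 693 clustered peaks. From 5000 to under 10000 bp, 92 isolated peaks had 60.3 reads and 29.3% with the flag, against 56.3 reads and 38.5% in 1327 clustered peaks. Only in this widest band was the flag less frequent in isolated peaks. The log2 ratio, in contrast, was lower in isolated peaks in every width band. Its medians were 1.20 against 1.55 in the narrowest band and 0.76 against 1.20 in the widest. A ratio over 2 was found in 10.2% against 21.6% in the narrowest band, and in 2.17% against 1.58% in the widest. Median input was higher in isolated peaks, at 14.7 against 9.25 and 15.6 against 11.3 reads per bin in these 2 bands. ChIP fell with width among isolated peaks (Spearman's rho -0.44 over 1510 peaks) more than among clustered ones (-0.19 over 4418). ChIP and input rose together in both (rho 0.53 and 0.61). No peak of the list had a log2 ratio below 0.585, so peaks with higher input were listed only with higher ChIP. That relation is therefore in part built into the list. These relations are across peaks of the same libraries, share the same reads and carry no p.

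The highest point of ChIP lay nearer to the middle in isolated peaks. Without matching on width, its distance from the peak's centre was a median of 40.2% of the half-width, against 49.1% in the wider clustered peaks. The pile-up at that point had a median of 68 against 59 reads, with a 95th percentile of 167.6 against 79. The ratio of the highest bin to the mean did not differ in the median (1.43 in both), though its 95th percentile was 2.00 against 1.76.

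The differences between isolated and clustered peaks were part of a gradual change with distance. Over eligible peaks, the median width fell from 3706 bp where the nearer neighbour was within 1 kb to 3234 bp at 10 to 30 kb, 2611 bp at 30 to 100 kb, 2020 bp at 100 to 200 kb and 1781 bp at 300 to 500 kb. Median ChIP rose over the same steps from 56.3 to 58.6, 61.5, 65.5 and 70 reads per bin, and median input from 10.8 to 11.9, 13.4, 14.9 and 15.6. The log2 ratio fell from 1.27 to 1.05 at 100 to 200 kb and did not fall further, with 1.09 at 200 to 300 kb and 1.14 at 300 to 500 kb. The flagged share was lowest at 10 to 30 kb (24.4%) and rose on both sides, to 28.2% within 1 kb and to 50% of the 46 peaks beyond 500 kb. The share with at least 100 ChIP reads per bin rose from 0.360% within 1 kb to 2.99% at 30 to 100 kb, 7.57% at 100 to 200 kb and 15.9% at 300 to 500 kb. Beyond 500 kb it was 19.6%, or 9 of 46 peaks. Among isolated peaks alone the relation of the smaller gap with ChIP was weak (rho 0.19 over 1510 peaks).

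**Figure D4:**
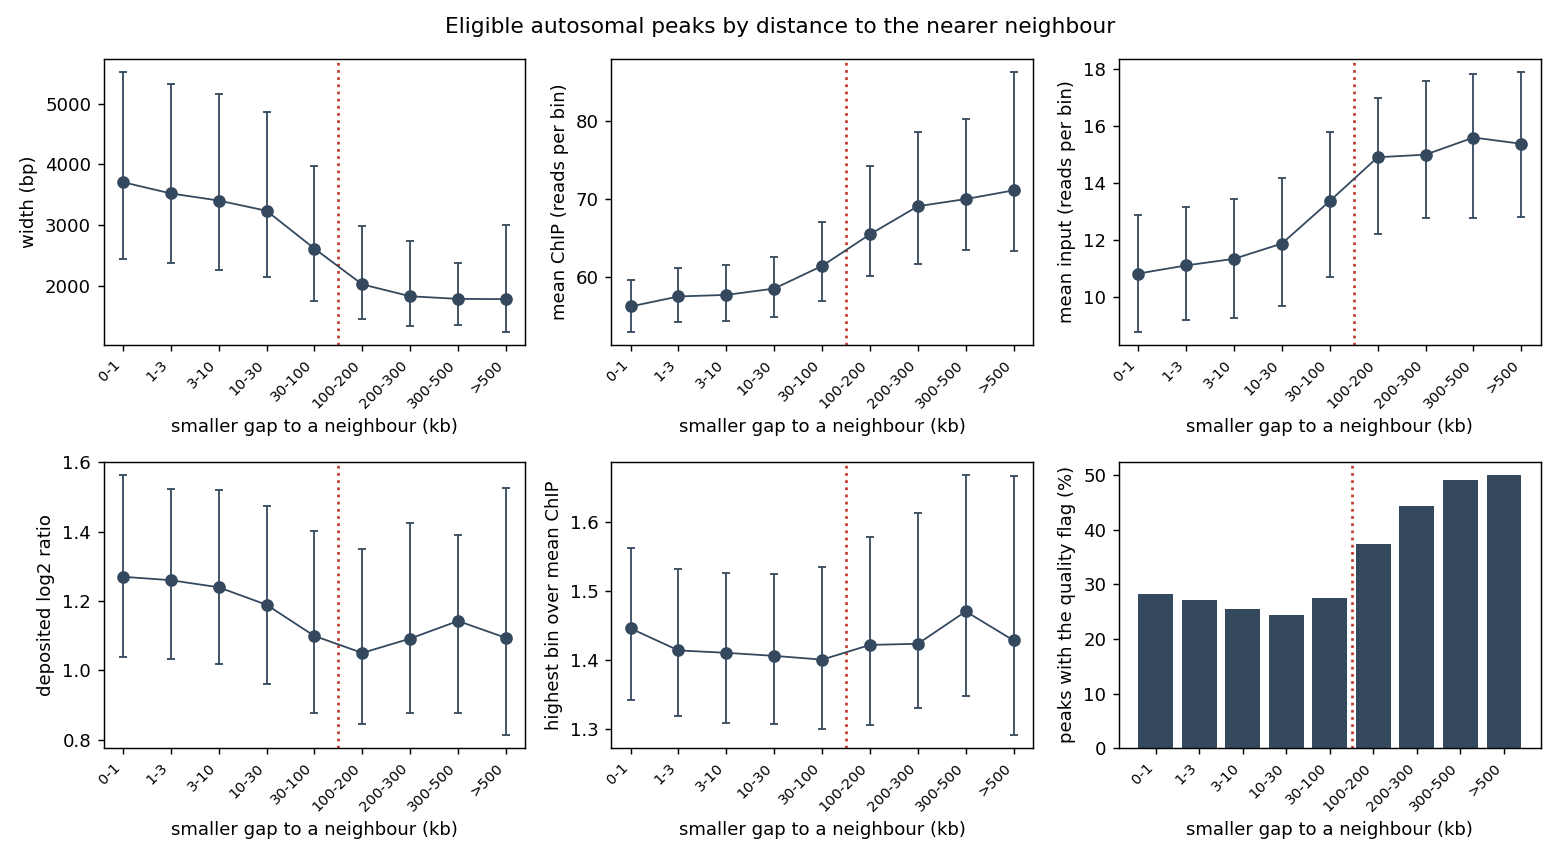
Width, mean ChIP, mean input, deposited log2 ratio, highest bin over mean ChIP (medians with interquartile ranges) and share of peaks with the quality flag, for eligible autosomal peaks by the distance to the nearer neighbour (x axis, kb). The dotted line marks the 100 kb border, across which width falls and ChIP, input and the flagged share rise without a jump in the medians.

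No break was seen at the borders of the rule. The 204 eligible peaks with a smaller gap of 100 to 110 kb had a median ChIP of 64.5 and a median input of 14.6 reads per bin, with a log2 ratio of 1.06. The 209 with a smaller gap of 90 to 100 kb had 65.1, 14.5 and 1.04. At the input border, 94 isolated peaks with 19 to under 20 input reads per bin had 78.3 ChIP reads, and 77 with 20 to under 21, outside the rule, had 81.7. At the width border, 94 isolated peaks of 1000 to under 1100 bp had 76.2 ChIP reads, and 85 of 900 to under 1000 bp had 75.

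Isolated peaks were most frequent on the autosomes with few peaks. They made up 8.60% of eligible peaks on chromosome 19 (49 of 570), 8.48% on chromosome 9 (108 of 1273) and 8.45% on chromosome 11 (76 of 899). The lowest shares were 2.65% on chromosome 3 (78 of 2947), 3.10% on chromosome 16 (49 of 1580) and 3.24% on chromosome 10 (65 of 2004). The share on chromosome 11 was 3.19 times that on chromosome 3 (exact 95% interval 2.30 to 4.44, with peaks taken as independent). With flagged peaks alone as the list it was 1.72 times (1.32 to 2.23). Across the 19 autosomes the isolated share fell with the number of all peaks per Mb (Spearman's rho -0.90, Pearson's r -0.89), and both were computed from the same positions. Counted per Mb, isolated peaks varied less, from 0.498 on chromosome 3 to 0.893 on chromosome 9, while all peaks varied from 9.10 per Mb on chromosome 11 to 20.7 on chromosome 3.

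Chromosome 11 was the only autosome with more isolated than clustered peaks (76 against 68), and chromosome 19 had 49 of each. Chromosome 17 combined a middling isolated share (4.54%) with the highest clustered share, 23.5%. The median ChIP of isolated peaks ranged over autosomes from 63.4 reads per bin on chromosome 15 to 71.1 on chromosome 8, and that of clustered peaks from 55.4 on chromosome 14 to 58.0 on chromosome 19, so the 2 ranges did not overlap. The flagged share of isolated peaks was highest on chromosome 8 (40 of 72, 55.6%), chromosome 17 (31 of 57, 54.4%) and chromosome 9 (57 of 108, 52.8%). It was lowest on chromosome 3 (23 of 78, 29.5%) and chromosome 15 (18 of 61, 29.5%). In clustered peaks of chromosomes 8, 17, 9, 3 and 15, in that order, it was 26.3%, 40.3%, 36.1%, 26.6% and 22.0%. Among clustered peaks, chromosome 17 had the highest flagged share of all autosomes. The share of isolated peaks with at least 100 ChIP reads per bin was highest on chromosomes 7 (12 of 77, 15.6%), 11 (11 of 76, 14.5%), 8 (10 of 72, 13.9%) and 9 (15 of 108, 13.9%). It was lowest on chromosomes 18 (1 of 63, 1.59%), 1 (4 of 120, 3.33%) and 3 (3 of 78, 3.85%). Over all autosomes it was 9.27% of isolated and 1.44% of eligible peaks. This share was not analysed for other peaks by autosome.

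**Figure D5:**
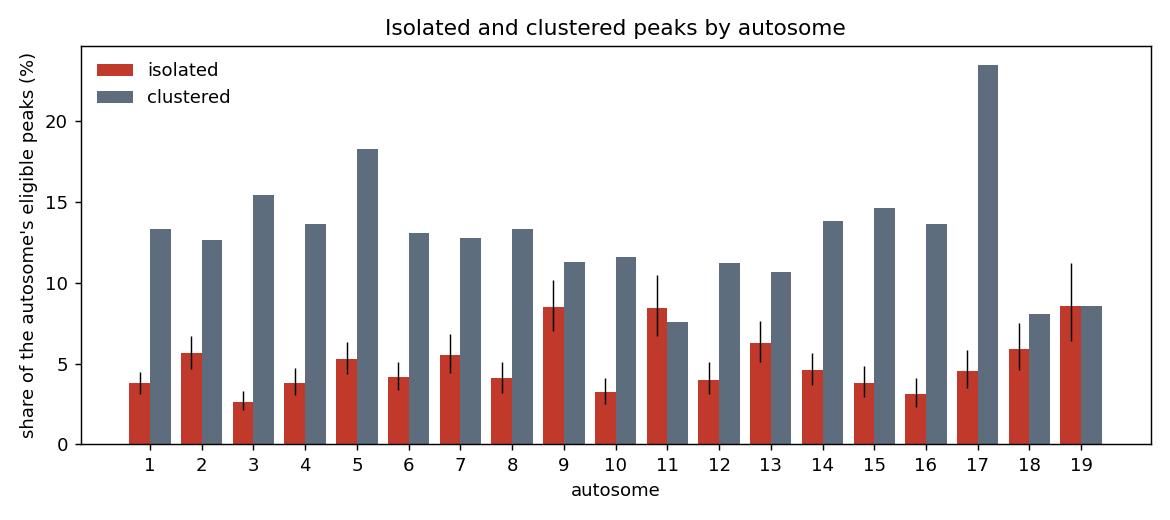
Share of the eligible peaks of each autosome (y axis, percent) that were isolated (red, with exact 95% intervals) or clustered (grey). Isolated shares run from 2.65% on chromosome 3 to 8.60% on chromosome 19, and only on chromosome 11 is the red bar the higher one.

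Mouse autosomes have their centromere at one end, where numbering starts. Each autosome's span was cut into 5 equal parts. In the part farthest from the centromere, 353 of 4414 eligible peaks were isolated (7.997%, exact 95% interval 7.21 to 8.84%). In the 4 other parts the share lay between 3.66% and 4.72%, with 267 to 312 isolated among 6605 to 7575 eligible peaks. Where peaks are few, the gap condition is met more easily. The distal part, farthest from the centromere, differed from the others more in its number of eligible peaks than of isolated ones. Isolated peaks of this distal part had a median ChIP of 69.4 reads and 51.6% with the flag, against 64.6 to 66.5 reads and 30.9 to 40.8% in the others. Their input, at 15.5 reads per bin, was near that of the other parts (14 to 15.3). The flag was carried by 40.2% of all isolated peaks and by 30.8% of the whole list. Flagged shares of other peaks were not analysed by part.

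The strongest isolated peak by ChIP was chr9:13422413-13423736 (1324 bp), where ChIP averaged 511.1 reads per bin with 1103 in the highest, and input 14.7. Summed over its bins, ChIP exceeded scaled input 14.4-fold (exact 95% counting interval 11.8 to 17.6), and its neighbours lay 285.5 and 121.5 kb away. Next came chr4:129878983-129886850, 7868 bp wide, where ChIP averaged 351.3 and input 18.3 reads per bin, a ratio of 7.95 (7.38 to 8.56). It is 1 of the 92 isolated peaks of 5000 bp or more. The isolated peak before it on the same chromosome, chr4:128691800-128692820, was also among the 5 strongest, with 224 ChIP reads per bin and a 6.54-fold excess (5.25 to 8.24). The 2 are separated by 1186 kb without a peak, and the other neighbour of the narrower peak lies 866.5 kb away, which also put that peak among the 5 most remote. The other two of the 5 strongest were chr5:143182201-143183886, 5.32-fold (4.53 to 6.29), and chr11:105416363-105417368, 5.19-fold (4.25 to 6.41), with 230.3 and 217.8 ChIP reads per bin.

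The 10 largest log2 ratios ran from 2.93 to 4.56, and all 10 peaks carried the flag. Highest was chr9:89853601-89859007 (5407 bp), with 128.4 ChIP over 4.89 input reads per bin and a log2 ratio of 4.56. Its fold of summed counts was 10.8 (9.15 to 13.0). Ranks 2 and 3 were neighbours on chromosome 11, 136.0 kb apart: chr11:109026251-109028174 with 69 over 8.30 reads per bin, and chr11:108889153-108890236 with 110 over 7.14. Their deposited log2 ratios, 3.93 and 3.92, taken here as means over bins, were almost equal. Their folds of summed counts were 3.44 (2.73 to 4.37) and 6.34 (4.76 to 8.62). Values of single bins were not analysed here. The fourth, chr11:120063207-120064939, had 179.6 over 7.56 reads per bin, 9.82-fold (7.71 to 12.7), and stood 618.3 and 650.3 kb from its neighbours. Of the other 6, the strongest by ChIP of chromosome 9 above ranked eighth, and chr8:98038986-98040037 averaged 163.4 reads in ChIP and 16.9 in input, 4.01-fold (3.31 to 4.89). The remaining 4 had little input, from 3.43 to 5.50 reads per bin, under ChIP of 38.3 to 69.8. Among them chr5:25414561-25415731 had only 24 input counts in all and an interval of 3.04 to 7.33 around its 4.62-fold ratio.

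The most remote peak was chr1:136276957-136278399 (1443 bp), with 1369 kb free of peaks before it and 2731 kb after it. It was not among the strong ones, with 73.9 ChIP over 18.9 input reads per bin, a log2 ratio of 0.78 and a 1.62-fold excess (1.35 to 1.95). It nevertheless carried the flag. The next 3 by remoteness, chr7:118051723-118055135, chr4:116282201-116283599 and chr4:117186356-117188252, had log2 ratios of 0.84, 0.93 and 0.60. Their inputs lay between 17.9 and 19.6 reads per bin, near the upper limit of the rule. The 2 on chromosome 4 follow each other, 902.8 kb apart.

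The 5 widest isolated peaks measured 9385 to 9566 bp and were shallow, with 56.2 to 60.5 ChIP reads per bin, log2 ratios of 0.72 to 0.90 and no flag. Among them, chr7:126785790-126795355 and chr7:126956800-126966251 were neighbours 161.4 kb apart, at 1.52-fold (1.40 to 1.64) and 1.71-fold (1.57 to 1.86). The 5 lowest log2 ratios were all 0.59, the lower end of the whole list, with inputs of 17.3 to 19.7 reads per bin. One of these, chr11:8913963-8922946, still carried the flag, with 139 reads in its highest bin over a mean of 69.5. Typical of flagged isolated peaks was chr6:97508247-97509337, at their median log2 ratio of 1.30, with 69.5 ChIP over 11.8 input reads per bin and a 2.43-fold excess (1.88 to 3.17). A second, chr1:90826397-90828792, had 63.7 over 11.7, 2.25-fold (1.89 to 2.69). The intervals of both typical peaks lay below those of the 5 strongest by ChIP, an order that the choice of the peaks favours.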

How the data were processed

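Sonicated dentate gyrus chromatin was sequenced as single reads of 100 bp from libraries averaging 350 bp, per the labels' protocols. The submitters' processing notes name Bowtie 0.12.7 and the build mm9. The peak caller, the rule for duplicate and multiply aligned reads and the way the libraries were combined were not stated there. Per the file headers, the signal values are means of ChIP and of input reads over the bins of a peak, and the highest bin is a count. Scaled input was the deposited input times a constant of 2.42. The deposited log2 ratio, by its name an average, was likewise taken as a mean over bins. The deposited −log10 values stand, by their column names, for a mean p and a smallest p, which were taken as those of the bins.

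Gaps ran from the stop of a peak to the start of the next in the full list. The number of bins in a named peak was inferred as the number nearest to width over 200 bp that made both sums whole (tolerance 1e-06). It lay within 1 of that quotient in 77.6% of isolated peaks, and summed counts rest on it. Their intervals are exact binomial 95% intervals and cover counting error only, since a read may be a PCR copy and may count in neighbouring bins. Medians have binomial and shares exact Clopper-Pearson 95% intervals.

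Members, groups and alternatives were chosen with earlier results of these data known. Peaks to be named were the 10 largest log2 ratios, the 5 largest ChIP values, the 5 most remote by the smaller gap, the 5 widest, the 5 lowest log2 ratios and the 3 flagged peaks nearest to the median ratio of flagged peaks. These are 31 different peaks. Bands of input, width and distance, parts of chromosomes, runs and the border of 100 ChIP reads were added after seeing the data. Promoters, genes and base composition were foreseen and not analysed here. The search for isolated peaks and the intervals were tested on simulated data. Calculations used scipy 1.17.1, numpy 2.4.6 and pandas 2.3.3 under Python 3.11.15, and figures matplotlib 3.10.9.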

Additional observations from a re-analysis of the deposited data

How the results depend on the processing

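Differences are isolated minus clustered medians, or shares for the flag. The number of isolated peaks was 3572 with a gap over 50 kb and 453 with one over 200 kb, and stayed within 1.5 times of 1510 in the other 5 settings. With 50 kb the differences were -1477 bp in width, 7.15 ChIP and 3.49 input reads per bin and 5.35 percentage points in the flag. With 200 kb they were -1857 bp, 12.1 ChIP reads, -0.17 in log2 ratio and 18.0 points. Without width limits they were -2098 bp, 10.4 ChIP and 3.80 input reads and -0.15 in log2 ratio. Without input limits they were 12.3 ChIP and 5.10 input reads, -0.27 in log2 ratio and 17.0 points. With flagged peaks alone as the list they were -2400 bp, 6.25 ChIP and 2.95 input reads, and the share on chromosome 11 was 1.72 times that on chromosome 3. In matched bands each value is the median (for the flag, the mean) of an isolated peak minus the clustered peaks of its band. Width matched on input alone differed by -1537 bp, and input matched on width alone by 4.84 reads. Matched on both, ChIP differed by 1.95 reads and the flag by 19.5 points, and the log2 ratio difference reversed to 0.031. Log2 of mean counts, with 1 added to each, gave -0.16. Fewer or more peaks follow from other borders by construction, and for the other shifts the cause was not tested. Merging peaks under 1 kb apart and a clustered border of 5 kb left every difference computed within its 95% interval. No paired analysis was possible because values of single libraries are absent from the list, and for that reason no replicate could be left out. Library depth is unknown, so no limit of detection can be given.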
